A study of Homo sapiens with 9 samples.

Results

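The genes described here are MYC and genes that build ribosomes, 32 in all of the 19869 genes in the table of H460-ERT2-RUNX3-K94/171R cells. They were taken from a given list of symbols, which was chosen with earlier results of these data known. The symbols were matched to Ensembl identifiers, and each of the 32 was found and had an FPKM of at least 1. In its usual form, FPKM counts the sequenced fragments of a gene relative to the length of its transcript and to all fragments mapped in the library. How the deposited values were scaled between libraries was not established here. H460 is a human large cell lung cancer line grown from a pleural effusion, in which RUNX3, a transcription factor, is inactivated. H460-vec cells served as the control line. H460-ERT2-RUNX3 cells carry wild-type RUNX3 fused to ERT2, a form of the estrogen receptor's ligand-binding domain that releases its partner into the nucleus when 4-hydroxytamoxifen (4-OHT) is bound. H460-ERT2-RUNX3-K94/171R cells, called K94/171R cells from here on, carry the same fusion with arginine in place of lysines K94 and K171. The lines were obtained by stable transfection and were at passage 11, and the sources used here do not say whether a line is a single clone. Cells of each line were deprived of serum for 24 h. They were taken at that point (0 h) or 8 h and 16 h after stimulation. The protocol names 10% serum with or without 1 uM 4-OHT, and these libraries were read as serum with 4-OHT from their titles and treatment label. Under that reading, serum and 4-OHT cannot be told apart within a line. There were 9 libraries, 1 for each line and time, and no difference given here has a replicate check.

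Ribosomes are made largely in the nucleolus, where RNA polymerase I copies the ribosomal RNA genes and small nucleolar ribonucleoproteins (snoRNPs) modify and help cut the transcript. Assembly factors then fold the RNA with ribosomal proteins into the small and the large subunit, and most of them leave before the subunit is mature. MYC, a transcription factor that pairs with MAX on the E-box, is known to drive many of these genes when resting cells are returned to growth, and MXD proteins compete with it for MAX.

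RefSeq promoter windows (build GRCh38.p14, from 250 bases before to 50 bases after a start) were at hand for 26 of the 32 genes, all but RRP12, BOP1, RRS1, MYC, NOP58 and NOLC1. The E-box letters CACGTG, which read the same on both strands, were found in a window of 11 of the 26 genes (42.3%). They were found in 1727 of 15843 protein-coding genes (10.9%) and in 13.0% of those with an FPKM of at least 1. By window, the share was 33.3% of 33 for the genes described here and 8.34% of 22199 for protein-coding genes. In all 11 genes (GAR1, MRTO4, BYSL, UTP20, NOP2, PES1, RRP9, GNL3, LTV1, WDR43 and FBL) the match began within 10 bases before and 35 bases after the start. In the 100 bases around the start, 4.40% of protein-coding genes held the letters. The RUNX letters ACCACA and ACCGCA, searched on both strands, were found in 4 genes (15.4%) and 3 genes (11.5%), against 14.5% and 11.0% of protein-coding genes.

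The windows of 7 genes with the E-box letters are shown from 50 bases before to 50 bases after the start, to let the place of the letters be compared. They are the 5 with the highest 8 h change given later, LTV1, where the E-box letters overlap RUNX letters on the other strand, and FBL, which had the smallest 8 h change of the 11. NOP16 follows as the gene with the highest 8 h change, whose window holds no E-box letters. Capitals mark CACGTG. The GAR1 window is chr4:109815712-109815811 on the plus strand. The MRTO4 window is chr1:19251755-19251854 on the plus strand. The BYSL window is chr6:41921449-41921548 on the plus strand. The UTP20 window is chr12:101280055-101280154 on the plus strand. The NOP2 window is chr12:6568242-6568341 on the minus strand. The LTV1 window is chr6:143843288-143843387 on the plus strand. The FBL window is chr19:39846330-39846429 on the minus strand. The NOP16 window is chr5:176388549-176388648 on the minus strand. A match describes the letters in these windows and not the binding of a factor, which was not measured here.
GAR1: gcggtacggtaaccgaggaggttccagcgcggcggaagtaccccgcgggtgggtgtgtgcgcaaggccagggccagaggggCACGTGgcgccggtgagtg
MRTO4: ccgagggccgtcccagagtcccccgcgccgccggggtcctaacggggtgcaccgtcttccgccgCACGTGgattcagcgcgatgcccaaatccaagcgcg
BYSL: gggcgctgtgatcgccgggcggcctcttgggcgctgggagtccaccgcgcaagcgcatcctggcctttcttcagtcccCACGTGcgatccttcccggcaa
UTP20: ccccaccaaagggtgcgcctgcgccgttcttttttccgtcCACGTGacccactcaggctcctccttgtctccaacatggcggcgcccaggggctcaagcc
NOP2: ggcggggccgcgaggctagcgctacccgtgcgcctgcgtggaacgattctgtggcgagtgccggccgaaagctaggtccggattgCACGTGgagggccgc
LTV1: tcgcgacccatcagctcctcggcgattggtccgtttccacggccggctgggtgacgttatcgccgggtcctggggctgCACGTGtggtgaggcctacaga
FBL: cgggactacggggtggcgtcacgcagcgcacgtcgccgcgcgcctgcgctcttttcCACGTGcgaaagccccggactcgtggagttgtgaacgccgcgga
NOP16: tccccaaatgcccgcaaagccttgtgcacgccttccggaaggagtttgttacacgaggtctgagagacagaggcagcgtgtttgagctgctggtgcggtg

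K94/171R cells had higher values of all 32 genes at 8 h than at 0 h, and lower values of all 32 at 16 h than at 8 h. Each of the 32 genes thus had its highest FPKM at 8 h, which held for 38.7% of the 11390 genes with an FPKM of at least 1. A change is given as log2 of the ratio of FPKM after a pseudocount of 0.05 was added to both values, and this makes changes at low FPKM look smaller. At 8 h against 0 h the median change of the 32 genes was 0.75, with a range from 0.01 to 1.13, and the median over all genes was 0.0048. Higher values by any amount were found for 50.6% of all genes. A change of at least 0.5 was found for 26 of the 32 genes and for 9.42% of all genes. A change of at least 1, which is 1 doubling, was found for 5 of the 32, namely NOP16, PPAN, GAR1, MRTO4 and BOP1, and for 1.32% of all genes. A change of -1 or less was found for 0 of the 32 and for 2.66% of all genes.

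At 16 h against 8 h the median change of the 32 genes was -0.93, with a range from -1.48 to -0.29, and the median over all genes was -0.014. Lower values by any amount were found for 51.7% of all genes. A change of -0.5 or less was found for 26 of the 32 genes and 10.7% of all genes. A change of -1 or less was found for 13 of the 32 and 1.57% of all genes, and a change of at least 1 for 0 of the 32 and 2.78% of all genes. At 16 h against 0 h, 28 of the 32 genes were lower (51.8% of all genes) and 4 were higher, namely WDR12, GAR1, GNL3 and MYC. The median change was -0.20, and 0 of the 32 reached 1 (1.47% of all genes) or -1 (1.32%). When each library was scaled to an equal FPKM total, 11 were higher (61.9% of all genes) and 21 lower (38.1%) at 16 h than at 0 h, since POLR1A, POLR1B, POLR1C, NOP2, PPAN, BYSL and WDR43 changed sign. The median was -0.11 on that scale. In the values as deposited it was -0.083 without the 16 genes that share at least 10% of exonic bases with other genes or have named pseudogenes. Among these 16 are LTV1 (34.7% shared), NOP16 (18.6%), NIP7 (18.4%) and POLR1C (18.3%), whose values may hold reads of other genes. The 3 comparisons share libraries, so a value that is high at 8 h by error would enter the first and the second alike. FPKM is a relative measure, and the amount of RNA per cell was not measured. The FPKM totals as deposited were 603652, 588309 and 566164 (0, 8 and 16 h), so scaling to an equal total puts 1 scale in place of another.

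**Figure D1:**
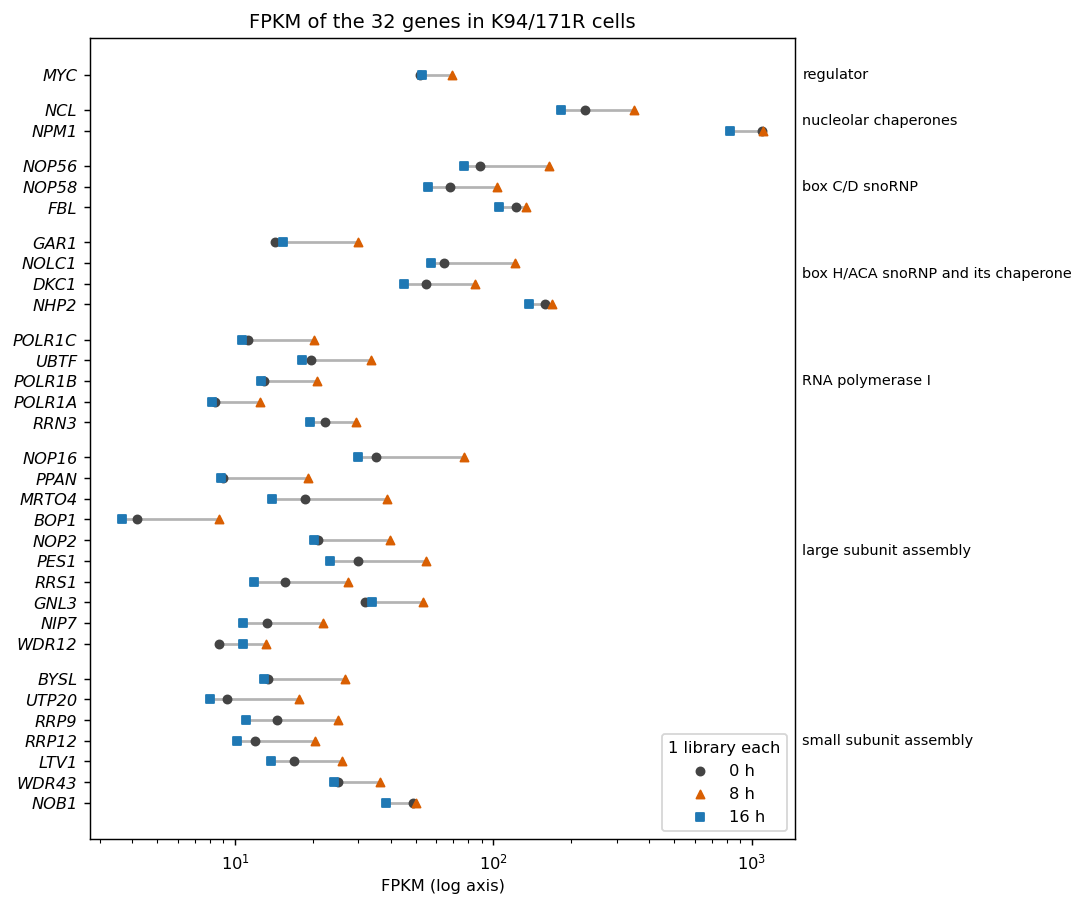
FPKM of the 32 genes (log axis) in the 3 K94/171R libraries at 0, 8 and 16 h, grouped by role, with a grey line from the lowest to the highest value. The 8 h value is the highest for each gene, and most 16 h values lie at or a little below the 0 h value.

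The plot of FPKM by time shows that the genes differed far more in level than in time course. At 0 h the levels ran from FPKM 4.16 for BOP1 to 1097 for NPM1. The order from the top was NPM1, NCL, NHP2, FBL and NOP56, and the lowest were BOP1, POLR1A, WDR12 and PPAN. Of the 4 genes with the smallest 8 h change (NPM1, NOB1, NHP2 and FBL), 3 were among the 4 with the highest level at 0 h. Summed FPKM of the 32 genes was 2346 at 0 h, 3002 at 8 h and 1909 at 16 h, of which NPM1 alone gave 1097, 1107 and 826.

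**Figure D2:**
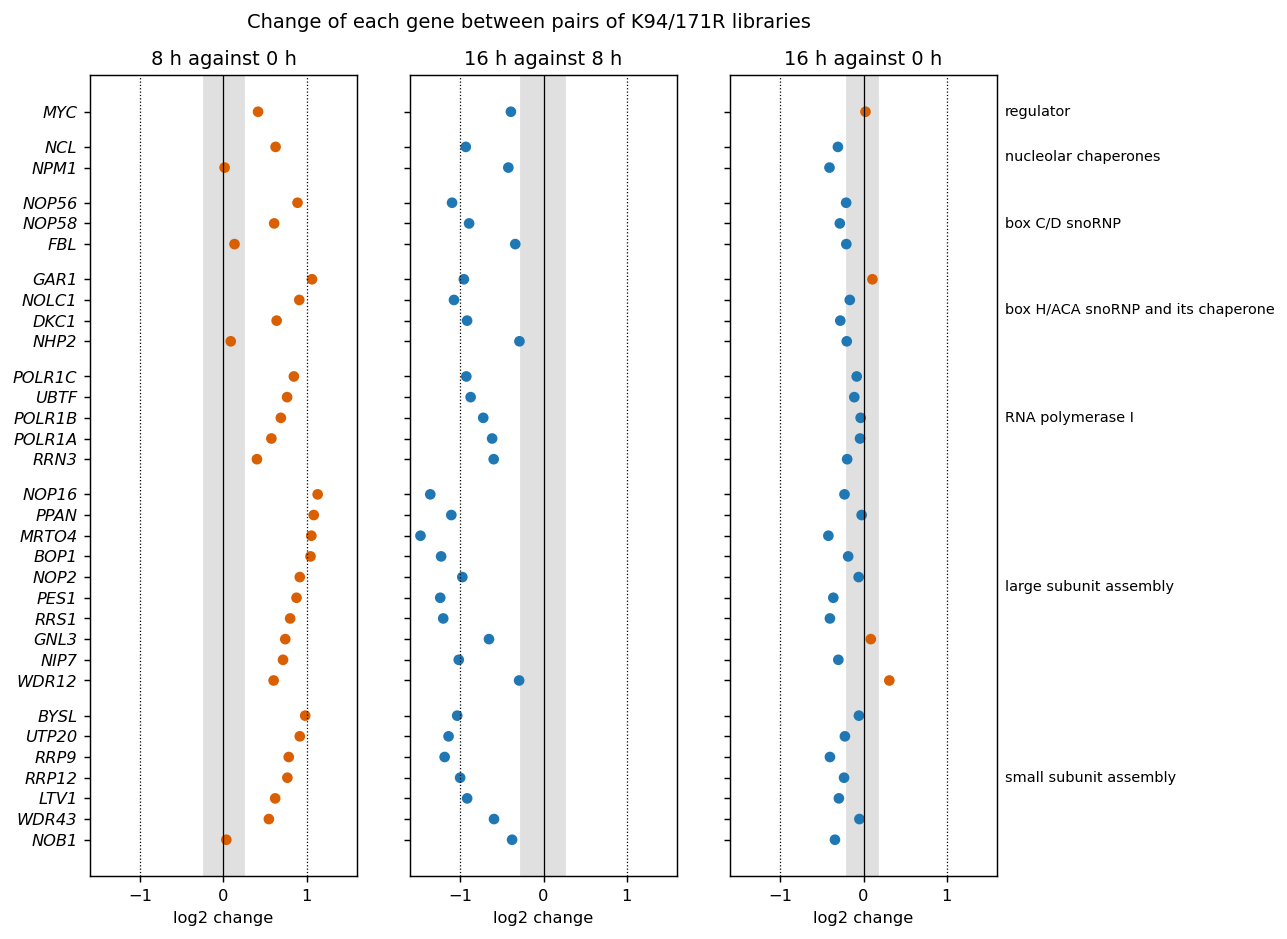
Log2 change of each of the 32 genes between pairs of the K94/171R libraries, with orange points above 0 and blue points below 0. The grey band holds the middle 50% of all genes with an FPKM of at least 1 (from -0.23 to 0.24 at 8 h against 0 h), and dotted lines mark -1 and 1.

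The plot of changes has all 32 genes to the right of 0 at 8 h against 0 h and to the left at 16 h against 8 h, and changes from -0.42 to 0.31 at 16 h against 0 h. MYC, the regulator of the group, had FPKM 51.9, 69.2 and 52.7 (0, 8 and 16 h). Its change was 0.41 at 8 h and 0.02 at 16 h against 0 h, and -0.39 at 16 h against 8 h. The 8 h change of MYC ranked 1482 of 11390 genes, below that of most of the genes described here. NOP16, an assembly factor of the large subunit, ranked 94.

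The nucleolar chaperones NCL (nucleolin) and NPM1 (nucleophosmin), the most abundant pair at 0 h, differed in their 8 h change. NCL had FPKM 226, 349 and 183 (0, 8 and 16 h), changes of 0.63 at 8 h against 0 h and -0.93 at 16 h against 8 h. NPM1 was nearly level until 8 h (0.01) and lower at 16 h (-0.42 against 8 h). NPM1 has 49 named pseudogenes in the annotation, and how the authors' counting shared reads among such copies is not given in the sources used here.

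The box C/D snoRNP, which methylates ribosomal RNA, is represented by FBL (fibrillarin, the methyltransferase) and the core proteins NOP56 and NOP58. NOP56 had FPKM 88.9, 165 and 76.9 (0, 8 and 16 h), a change of 0.89 at 8 h and of -1.10 at 16 h against 8 h. NOP58 had FPKM 67.9, 104 and 55.7 at the same times. FBL moved least of the 3, from FPKM 122 to 133 and 105, a change of 0.13 at 8 h. A similar spread was seen in the box H/ACA snoRNP, which makes pseudouridine. Its small core protein GAR1 had FPKM 14.3, 29.8 and 15.3 (0, 8 and 16 h), a change of 1.06 at 8 h and -0.96 at 16 h against 8 h. DKC1 (dyskerin, the pseudouridine synthase) had FPKM 54.6, 85.0 and 45.0, and NOLC1, a chaperone of snoRNPs, 64.2, 121 and 57.3. The core protein NHP2 had FPKM 158, 168 and 137, a change of 0.09 at 8 h. For NHP2, 28.05% of exonic bases are shared with other genes, most with RMND5B, and 2 pseudogenes are named. The remaining core proteins, which are not among the 32 genes, also had small 8 h changes, 0.03 for SNU13 of box C/D and 0.15 for NOP10 of box H/ACA. The core proteins of either complex thus had different 8 h changes.

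All 5 genes of RNA polymerase I transcription were higher at 8 h, with changes from 0.40 to 0.84, and close to their 0 h level at 16 h, with changes from -0.20 to -0.03. The largest subunit POLR1A had FPKM 8.35, 12.5 and 8.11 (0, 8 and 16 h). POLR1B, the second-largest subunit, had FPKM 12.9, 20.8 and 12.6. POLR1C, a subunit shared with RNA polymerase III, had FPKM 11.3, 20.2 and 10.6, the highest change of the 5 at 8 h (0.84). The initiation factor RRN3 (FPKM 22.3, 29.5 and 19.5) had the lowest, and UBTF, which binds the ribosomal RNA genes, had FPKM 19.7, 33.4 and 18.2. Rescaling to the same FPKM sum put POLR1A, POLR1B and POLR1C slightly above their 0 h level at 16 h.

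The 10 genes of large subunit assembly had the highest median change of the role groups at 8 h (0.90) and the lowest at 16 h against 8 h (-1.15). NOP16 had FPKM 35.2, 77.1 and 30.0 (0, 8 and 16 h), a 2.19-fold ratio of 8 h to 0 h and a change of 1.13. MRTO4, a placeholder for a ribosomal stalk protein, had FPKM 18.6, 38.7 and 13.9. Its change was 1.05 at 8 h against 0 h and -1.48 at 16 h against 8 h, the lowest of the 32 genes. PPAN had FPKM 8.97, 19.1 and 8.83 (1.08 at 8 h), but 49.2% of its exonic bases are shared with its readthrough gene PPAN-P2RY11, so reads from them cannot be told apart. BOP1, PES1 and WDR12 form the PeBoW complex of large subunit maturation. BOP1 had FPKM 4.16, 8.64 and 3.66, and PES1 had FPKM 29.9, 54.9 and 23.2. WDR12 had FPKM 8.63, 13.1 and 10.7, and at 16 h it lay farther above 0 h (0.31) than any other of the 32 genes. The 3 partners in the complex were therefore all higher at 8 h and lay at different distances from their 0 h level at 16 h.

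The other large subunit genes moved likewise. NOP2, an RNA methyltransferase, had FPKM 21.0, 39.7 and 20.2 at 0, 8 and 16 h, but 54.4% of its exonic bases are shared with another annotated gene. RRS1, which is needed for 5S RNA incorporation, had FPKM 15.6, 27.2 and 11.8. GNL3 (nucleostemin), a GTP-binding protein of the nucleolus, had FPKM 31.9, 53.4 and 33.9, and NIP7 had FPKM 13.3, 21.8 and 10.8. GNL3 stood slightly above its 0 h level at 16 h (0.09), while RRS1 was the second lowest after MRTO4 among the group (-0.40).

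Of the 7 genes of small subunit assembly, 6 had a change of at least 0.5 at 8 h. BYSL (bystin), which acts late in 40S maturation, had FPKM 13.5, 26.6 and 12.9 (0, 8 and 16 h), a change of 0.98 at 8 h and -1.04 at 16 h against 8 h. UTP20, a large scaffold of the early 90S particle, had FPKM 9.31, 17.6 and 7.97. RRP9, which binds the U3 snoRNA, had FPKM 14.6, 25.1 and 11.0, and RRP12 had FPKM 11.9, 20.4 and 10.2. LTV1, an export-linked factor, had FPKM 16.9, 26.0 and 13.8, and WDR43 had FPKM 24.99, 36.5 and 24.2. The exception was NOB1, the nuclease that makes the final cut of 18S RNA, with FPKM 48.9, 50.05 and 38.5, a change of 0.03 at 8 h. NOB1 shares 20.4% of its exonic bases with other genes, most with NQO1-DT, so its value may hold their reads. NOB1 and its partner genes thus differed at 8 h, and all 7 were below their 0 h level at 16 h in the values as deposited (BYSL and WDR43 above it after rescaling).

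Genes with the E-box letters in a promoter window had a median 8 h change of 0.88 over 11 genes, and those with a window but without the letters had 0.64 over 15. Over all protein-coding genes with an FPKM of at least 1 the medians were 0.047 with the letters (1214 genes) and 0.0020 without them (8100 genes). With the letters within 50 bases of the start, the median was 0.10 over 520 genes. FBL has the letters and had a change of 0.13, and NOP16 lacks them and had 1.13. The difference between the groups was not tested.

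**Figure D3:**
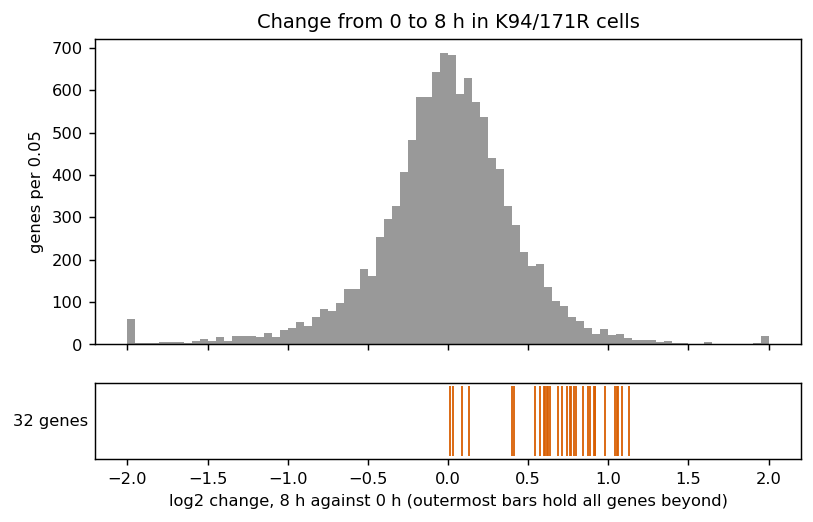
Number of genes per 0.05 of log2 change from 0 to 8 h in K94/171R cells, for the 11390 genes with an FPKM of at least 1 (grey bars, outermost bars holding all beyond), above the 32 genes as orange lines. The 32 lines lie on the right of 0, between 0.01 and 1.13, inside the range of all genes.

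In the histogram of 8 h changes the 32 genes form a group above 0, and other genes lie beyond them on either side. Other genes of ribosome biogenesis, 117 that were listed by function, were mostly highest at 8 h too, with smaller medians. Of 116 with an FPKM of at least 1, 102 had their highest value at 8 h (38.7% of all genes), 107 were higher at 8 h than at 0 h (50.6%) and 109 were lower at 16 h than at 8 h (51.7%). Their median changes were 0.50 and -0.56. Among these, 1 of 116 reached 1 at 8 h, NOL6 with FPKM 7.65, 15.7 and 7.26, where 1.32% of all genes did. At 16 h against 8 h, 8 of 116 reached -1 (1.57% of all genes). This list and that of the 32 genes were chosen with earlier results of these data known, so their difference in medians is no independent comparison. The 45 small subunit genes had a median 8 h change of 0.56 and the 49 large subunit genes 0.50. In contrast, the 12 other snoRNP assembly genes had 0.23 and the 10 other RNA polymerase I genes 0.16. POLR1G, a polymerase subunit, went from FPKM 5.996 to 10.9 and 3.94 and had the lowest 16 h change of its list against 0 h (-0.60), and TAF1A, of the promoter selectivity factor, had the highest (0.19).

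The same rule, the highest and lowest change from 0 to 16 h, names a pair of genes in each of the other lists. Among large subunit genes these were URB1 (FPKM 8.44, 10.2 and 13.1) and NOL9 (3.23, 3.23 and 2.19). Among small subunit genes they were TBL3 (12.5, 22.9 and 19.2) and UTP25 (5.00, 6.31 and 3.47), and among snoRNP genes RUVBL1 (75.8, 85.3 and 105) and ZNHIT3 (38.3, 35.5 and 30.1). PWP2 was listed near 0 at each time.

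Known MYC targets outside the nucleolus moved less. Of 14 with an FPKM of at least 1, 12 were higher at 8 h (50.6% of all genes), with a median of 0.27, and 14 were lower at 16 h than at 8 h (51.7%). CAD, an enzyme of pyrimidine synthesis, had FPKM 17.6, 30.1 and 19.5, a change of 0.77 at 8 h. The transferrin receptor TFRC had FPKM 129, 144 and 85.5, the lowest 16 h change of the list against 0 h (-0.59). CCND2 was listed at or near 0. Without a filter on FPKM, the E-box letters were found for 11 of the 14 listed MYC targets that had a promoter window (78.6%). They were found for 31 of the 102 other ribosome biogenesis genes that had a window (30.4%). Within 50 bases of the start the shares were 35.7% and 24.5%, against 42.3% for the 26 of the 32 genes with a window, so the order of the lists depends on the window.

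The MYC network partners, in the plot by list, spread to both sides of 0. Of 11 with an FPKM of at least 1, 4 were higher and 7 lower at 8 h (49.4% of all genes were lower), and 3 reached -1 (2.66% of all genes), namely MXD1, MXD4 and MXD3. MXD4, a partner of MAX that represses E-box genes, had FPKM 13.0, 5.52 and 10.6 (0, 8 and 16 h). MXD3 had FPKM 10.1, 4.97 and 14.5, and MXD1, at low level, 1.62, 0.617 and 0.804. MNT, another repressor of the network, had FPKM 5.76, 3.23 and 5.98. MAX itself had FPKM 29.5, 33.3 and 29.6, and MLXIPL, with the highest 16 h change of the list against 0 h, had FPKM 1.63, 0.800 and 2.51. MYCN was listed at 0 and MYCL between 0 and 0.114. MXD1, MXD4, MXD3 and MNT thus had their lowest value at 8 h, where all 32 genes described here, MYC among them, had their highest. They were named after their values were seen, and the list as a whole was mixed. Of the 11 partners, 4 had their highest value at 8 h, among them MAX and MGA, the latter with a change of 0.368 against 0 h. MXI1 was lowest at 8 h by a small margin, with a change of -0.127 against 0 h. The share of all genes with their lowest value at 8 h is not given here. A link between the partners and the 32 genes was not tested.

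**Figure D4:**
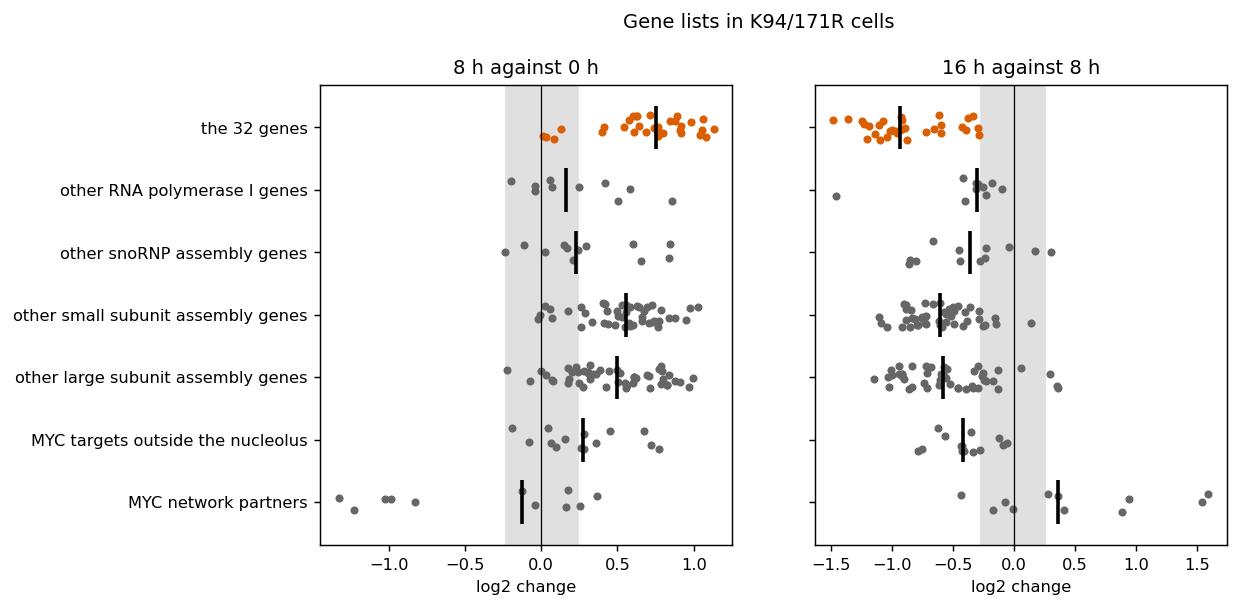
Log2 change of each gene (points, spread vertically for view) by list in K94/171R cells, at 8 h against 0 h and at 16 h against 8 h, for genes with an FPKM of at least 1. Black bars are medians (0.75 and -0.93 for the 32 genes) and the grey band holds the middle 50% of all genes.

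All 7 epithelial and NRF2 markers of H460 were high, and NQO1 had the highest, 2829 at 0 h. They were not level, as KRT18 had FPKM 593, 554 and 353 (-0.75 at 16 h against 0 h) and AKR1B10 had 774, 794 and 986 (0.35). Of leukocyte markers, CD3E was listed at 0, PTPRC and ITGAM were under 1, and CD14 stood between 3.16 and 5.62. Mesothelial and stromal markers MSLN, CALB2, WT1 and COL1A1 were all under 1. RUNX3, the partner of ERT2 in the fusion, had FPKM 2.12, 0.712 and 2.11 (0, 8 and 16 h) in K94/171R cells, and ESR1, the gene ERT2 derives from, had 3.22, 2.04 and 3.61. Both are low, so the fusion is taken from the labels and not from these values. Values of RUNX3, ESR1 and the markers in the other lines were not analysed here. Single reads leave steps in low FPKM values, from which relative depth was read. Taking the 0 h K94/171R library as 1, depth was 1.00 for the 8 h library and 0.985 for the 16 h library, and the most frequent ratio rests on only 17 and 18 genes.

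In H460-vec and H460-ERT2-RUNX3 cells, MRTO4 was the 1 gene of the 32 that could be named. Their table lists 24331 loci without symbols, and the part of the study's supplementary table that could be read pairs 1145 of them with symbols, nearly all on chromosome 1. It was made separately from the K94/171R table, so levels were not compared between tables. The library of H460-ERT2-RUNX3 cells at 16 h stood apart from the others. Its FPKM summed to 780952, against 554359 at 0 h, and its Pearson correlations with the other 5 libraries (log2 FPKM over genes, which are not independent replicates) were 0.761 to 0.861. Among those 5 libraries they were 0.914 to 0.959. In that line at 16 h, 20.5% of genes with an FPKM of at least 1 had a change of at least 1 and 20.8% of -1 or less. Rescaling to the same FPKM sum lowered all changes of that library by 0.49, and those of H460-ERT2-RUNX3 at 8 h by 0.18 and of H460-vec at 16 h by 0.11.

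MRTO4 in H460-vec cells had FPKM 41.0, 44.9 and 30.0 (0, 8 and 16 h), and in H460-ERT2-RUNX3 cells 41.2, 38.3 and 21.5. The locus lies at chr1:19578075-19586622 of hg19. Its change at 8 h was 0.13 in H460-vec, -0.11 in H460-ERT2-RUNX3 and 1.05 in K94/171R cells. At 16 h against 0 h it was -0.45, -0.94 and -0.42, and -1.43 in H460-ERT2-RUNX3 after rescaling to the same FPKM sum. The 3 lines thus had a lower MRTO4 value at 16 h than at 0 h, and K94/171R cells alone of the 3 libraries at 8 h had a doubled one, a difference that was not tested.

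The 8 ribosome assembly genes of chromosome 1 with a symbol, MRTO4 among them, had median 8 h changes of 0.12 in H460-vec, 0.20 in H460-ERT2-RUNX3 and 0.60 in K94/171R cells. After rescaling to the same FPKM sum the medians were 0.14 in H460-vec and 0.02 in H460-ERT2-RUNX3, so the order of these lines depends on the scale. At 8 h, 7 of the 8 were higher in H460-vec (50.6% of all genes), 7 in H460-ERT2-RUNX3 (50.3%) and 8 in K94/171R cells (50.6%). Rescaling left 5 of the 8 higher in H460-ERT2-RUNX3 cells, with RRP15 and URB2 turned lower, where 35.5% of all genes were higher. None of the 8 reached 1 or -1 at 8 h in H460-vec (1.26% and 0.898% of all genes) or in H460-ERT2-RUNX3 cells (5.10% and 3.84%). At 16 h, 0 of the 8 reached 1 or -1 in H460-vec (2.46% and 0.702%). In H460-ERT2-RUNX3 cells 2 of the 8 reached 1 at 16 h and 0 reached -1, against 20.5% and 20.8% of all genes. The difference between the lines at 16 h was at least 1 for 3 of the 8 (19.8% of all genes) and -1 or less for 0 (23.2%).

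UTP25, a small subunit factor, had FPKM 8.47, 10.9 and 28.9 in H460-ERT2-RUNX3 cells and 8.22, 7.26 and 5.95 in H460-vec, and its 16 h changes of 1.77 and -0.46 were the farthest apart. RPF1 (22.0, 30.9 and 47.4 against 22.1, 22.7 and 18.9) and UTP11 (30.1, 34.5 and 54.3 against 26.8, 28.2 and 20.6) were also higher at 16 h in H460-ERT2-RUNX3 cells. The RPF1 locus lies in its gene for 69.8% of its length and the WDR3 locus for 14.4%, so reads of neighbours may enter these values. WDR3 had FPKM 22.6, 25.9 and 17.1 in H460-ERT2-RUNX3 cells and 23.8, 26.5 and 21.1 in H460-vec. URB2 had 8.59, 8.60 and 6.77 against 8.25, 9.94 and 8.18, and RRP15 had 9.91, 11.1 and 9.43 against 9.32, 10.1 and 6.54. ZNF593 had 29.8, 56.2 and 46.7 against 32.8, 48.5 and 41.0, with changes at 8 h of 0.92 and 0.56. The assembly genes thus took different courses at 16 h in H460-ERT2-RUNX3 cells, with 4 higher and 4 lower than at 0 h. All genes lay on both sides of 0 there too, with a median of -0.0014 as deposited and -0.49 after rescaling. The median of the assembly genes was 0.29 as deposited and -0.20 after rescaling, so its direction depends on the scale.

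As the plot of the 3 lines shows, ribosomal proteins of chromosome 1 did not share the 8 h time course of the assembly genes in K94/171R cells. RPL5, RPL11 and RPS27 were all lower at 8 h there, with a median of -0.21, and remained so at 16 h (-0.23). RPS27 in K94/171R cells had FPKM 6704, 5784 and 5716. In H460-ERT2-RUNX3 cells the 3 genes were all higher, with a median of 0.32 at 8 h and 0.76 at 16 h, which were 0.14 and 0.27 after rescaling. RPS27 there had FPKM 4655, 6594 and 9881, and RPL11 had 1664, 2076 and 2821. RPL5, whose locus lies in its gene for 7.64% of its length, had 1132, 1295 and 1836. In H460-vec the medians were -0.12 and 0.06, the latter -0.05 after rescaling.

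**Figure D5:**
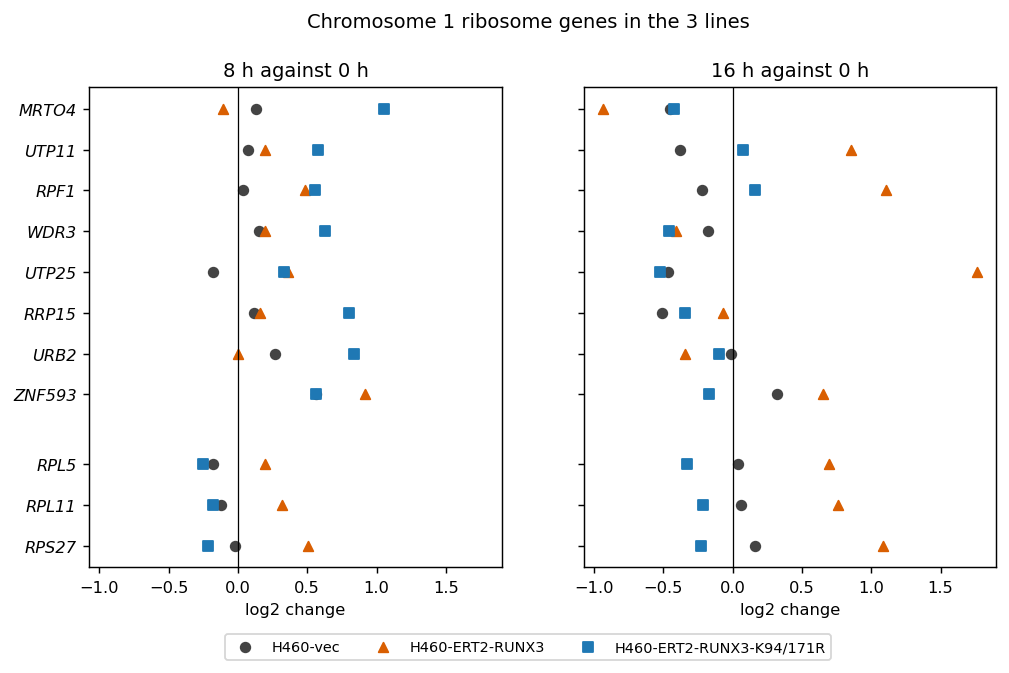
Log2 change of 8 ribosome assembly genes and 3 ribosomal protein genes of chromosome 1 at 8 h and 16 h against 0 h in the 3 lines, 1 library for each point. At 16 h the H460-ERT2-RUNX3 points (orange) spread from -0.94 to 1.77, and the H460-vec and K94/171R points lie between -0.52 and 0.32.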

How the data were processed

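RNA-seq libraries (TruSeq Stranded mRNA, NextSeq500) were made from 9 cultures, 1 for each line and time. The authors used Cutadapt for trimming and STAR (2.5.0 in the submitters' processing notes) for mapping to hg19, and deposited FPKM per gene from Cuffdiff (2.2.1) of the Cufflinks package, in 2 tables made separately. The gene annotation and the strand setting are not given in the sources used here. Ensembl identifiers without version were matched to symbols (19494 of 19869). Columns were assigned to samples by title.

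Changes were log2((FPKM + 0.05)/(FPKM + 0.05)) within a line, and a gene was kept when any library of the line reached FPKM 1. With 1 library per condition no test was run and no p-value was computed. Exon sharing used GENCODE release 44 lifted to GRCh37, and promoter windows came from RefSeq. The code was tested on simulated data with known changes. FPKM gives no reads, so only relative depth was read, from steps in low FPKM values. Python 3.11.15, pandas 2.3.3, numpy 2.4.6 and matplotlib 3.10.9 were used. The members and gene lists were chosen with earlier results of these data known. Genes named were the members, the chromosome 1 genes with a symbol and, of each other list, the highest and lowest change from 0 to 16 h. NOL6, SNU13, NOP10, MXD3, MXD4, MNT, MGA, MXI1, MAX, MYCN, MYCL, PWP2, CCND2, NQO1, RUNX3, ESR1 and the leukocyte and stromal markers were named outside that rule after their values were seen. Alternatives were another pseudocount, other thresholds and filters, rescaled libraries, a shorter promoter window and, chosen after seeing the data, leaving out genes or loci that share sequence with others. Cell type markers were KRT8, KRT18, KRT19, NQO1, AKR1C1, AKR1B10, TXNRD1, PTPRC, CD3E, CD14, ITGAM, MSLN, CALB2, WT1, COL1A1 and PECAM1, the last not matched. Some listed genes are not reported here, and none of these was a member or in the lists of other ribosome biogenesis genes, MYC targets or MYC partners.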

Additional observations from a re-analysis of the deposited data

Results flagged for a closer look

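Some chromosome 1 genes moved in opposite directions in a pair of lines, with log2 changes at least 1 apart, and these differences were not tested. At 16 h, H460-ERT2-RUNX3 lay above H460-vec by 2.23 for UTP25, by 1.33 for RPF1 and by 1.23 for UTP11. Against K94/171R cells it lay above by 2.29 for UTP25, by 1.32 for RPS27 and by 1.02 for RPL5, and both changes come from separately made tables. Rescaled to the same FPKM sum, the differences from H460-vec were 1.84 for UTP25, 0.94 for RPF1 and 0.84 for UTP11, and those from K94/171R cells were 1.70 for UTP25, 0.73 for RPS27 and 0.44 for RPL5, so of these 16 h differences those of UTP25 alone stayed at least 1. Each of these rests on the H460-ERT2-RUNX3 library at 16 h, which stood apart from the others. At 8 h, MRTO4 differed by -1.16 between H460-ERT2-RUNX3 and K94/171R cells (-0.11 and 1.05), and by -1.37 after rescaling.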

How the results depend on the processing

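Without replicates, a median was taken as kept when it moved by less than 0.1 on the log2 scale, and a count when it stayed within 1.5 times. In K94/171R cells the medians of the 32 genes were kept by that rule with a pseudocount of 1, with no filter, with FPKM of at least 10 and after either rescaling. With a pseudocount of 1, BOP1 went from 1.04 to 0.90 at 8 h and from -1.23 to -1.05 at 16 h against 8 h, and 4 genes were past 1 (0.571% of all genes) and 10 past -1 (0.729%). Rescaling to the same FPKM sum put 11 in place of 4 genes above 0 h at 16 h, and the median there went from -0.20 to -0.11. A threshold of 0.5 gave 26 genes higher at 8 h (9.42% of all genes) and 26 lower at 16 h against 8 h (10.7%). A threshold of 2 gave 0 and 0, where only 19 and 18 of all 11390 genes passed it. These 0 counts are thus near the share of all genes. An alternative chosen after seeing the data left out the 16 genes that share at least 10% of exonic bases or have named pseudogenes. The other 16 were all higher at 8 h (3 past 1, against 1.32% of all genes). All 16 were lower at 16 h than at 8 h (6 past -1, against 1.57%). Against 0 h, 12 of them were lower at 16 h (51.8% of all genes), with a median of -0.083.

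For chromosome 1 assembly genes a threshold of 0.5 gave 1 higher at 8 h in each of H460-vec and H460-ERT2-RUNX3, 1 lower at 16 h in H460-vec, and 4 higher and 1 lower at 16 h in H460-ERT2-RUNX3. For ribosomal proteins in H460-ERT2-RUNX3 it gave 1 higher at 8 h and 3 at 16 h. The share of all genes past 0.5 or 2 in these lines is not given here, so these counts describe the lists alone. The middle 50% of all genes lay from -0.17 to 0.21 (8 h) and from -0.20 to 0.26 (16 h) in H460-vec. In H460-ERT2-RUNX3 it lay from -0.30 to 0.33 (8 h) and from -0.81 to 0.80 (16 h), so changes past 0.5 were common there at 16 h. A threshold of 2 gave 0 higher at 16 h for either list and 1 difference between lines. With FPKM of at least 10 the 16 h median of assembly genes in H460-ERT2-RUNX3 was 0.65. Rescaling to the same FPKM sum gave medians for assembly genes of -0.41 in H460-vec at 16 h, and in H460-ERT2-RUNX3 of 0.019 (8 h) and -0.20 (16 h), where 1 was past 1 and 1 past -1, and 1 difference between lines was past 1. For ribosomal proteins it gave -0.046 in H460-vec at 16 h, and in H460-ERT2-RUNX3 0.14 (8 h) and 0.27 (16 h), with 0 past 1. Over all genes the rescaled medians were -0.085 in H460-vec at 16 h, and -0.17 (8 h) and -0.49 (16 h) in H460-ERT2-RUNX3. The shares of all genes past 1 or -1 after rescaling are not given here, so the rescaled counts describe the lists alone. Without loci of which under 95% lies in the gene, also chosen after seeing the data, the H460-vec 16 h median of assembly genes was -0.41 and 1 was past 1 in H460-ERT2-RUNX3, where the 16 h median of ribosomal proteins was 0.92. In the window from 100 bases before to 50 after the start, 2 genes had ACCACA (7.69%, against 7.77% of protein-coding genes). The cause was not tested for any of these.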
